A study of Mus musculus with 2 samples.

Results

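The retinoid visual cycle was examined through 10 genes, Rpe65, Lrat, Rdh5, Rdh8, Rdh10, Rdh11, Rdh12, Rbp3, Abca4 and Rlbp1, chosen by name as enzymes, transporters and binding proteins of the cycle. They were found on the array through 11 probes, each named by the RefSeq accession of its transcript, out of 27231 probes so named for 20659 genes. Expression was measured in retina of mice at postnatal day 14 on 2 one-colour Agilent arrays, 1 with RNA of wild-type (WT) retina and 1 with RNA of Mef2d KO retina. The knockout allele, the strain, the sex and the number of animals behind each array were not given in the sources used here. Retinas were dissected with forceps.

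Mef2d encodes a MEF2 transcription factor, and the comparison asks how the retinal expression profile differs when it is lost. The visual cycle returns the chromophore of the visual pigments to its light-sensitive 11-cis form after a photon has turned it all-trans. ABCA4 moves retinal out of the disc membrane, RDH8 and RDH12 reduce it to retinol in the photoreceptor, and interphotoreceptor retinoid-binding protein (IRBP, from Rbp3) carries retinoids across the space to the pigment epithelium. There LRAT makes retinyl esters, RPE65 isomerises them to 11-cis-retinol, and RDH5, with RDH11 and RDH10, oxidises the product to 11-cis-retinal, held by the binding protein CRALBP (from Rlbp1). CRALBP and RDH10 are also found in Mueller glia, which take part in the supply of chromophore to cones. The 10 genes were accordingly split into 4 photoreceptor genes (Abca4, Rdh8, Rdh12, Rbp3), 2 glial genes (Rlbp1, Rdh10) and 4 pigment epithelium genes (Rpe65, Lrat, Rdh5, Rdh11), although Rdh11 is made in photoreceptors too.

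With 1 array per group there is no replicate check and no p-value. Values are scanner intensities after the software's background subtraction. A level is log2 of an intensity minus its array's 75th percentile, and a difference is the Mef2d KO level minus the WT level on that log2 scale. The error written as ± is 1 SD of the difference by the error that the scanning software assigned to each spot. It leaves out the spread between animals and dissections. It was 0.20 or 0.21 for all 11 member probes, dim or bright, so it is nearly a fixed share of intensity and not a spread measured per gene. The SD of the difference between replicate spots was smaller, with a median of 0.069 over 348 probes. The 2 Mef2d probes were not lower on the Mef2d KO array, with differences of 0.43 ± 0.20 and 0.14 ± 0.21, and their place relative to the deleted part was not known here, so the label is unchecked by them. Xist, the RNA of the inactive X chromosome, was not well above background on the WT array and was at least 51.7-fold higher by its brighter probe on the Mef2d KO array, so genotype and sex of the animals cannot be told apart. Of 11 lens markers read on both arrays, 9 were 2-fold or more lower on the Mef2d KO array, such as the water channel gene Mip (-4.09), and 1, Lgsn, was higher. No spot was saturated.

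None of the 10 visual cycle genes was 2-fold apart between the arrays. All 11 probes passed the software's flag for a signal well above background on each array. Among the 16172 genes that both arrays read, 2.35% stood 2-fold or more apart, 1.73% lower and 0.618% higher on the Mef2d KO array, so 0 of 10 is near the background share. The differences ran from -0.41 for Rbp3 to 0.38 for Rdh8, with a median of -0.14, against -0.0060 over all genes. In all, 7 lay below 0, namely Abca4, Rdh12, Rbp3, Rlbp1, Rdh10, Lrat and Rdh11, while 51.2% of all genes did. This sign count turns on the scaling: median scaling, which moves the median of all genes to 0.17, left 2 of the 10 below 0, Rbp3 and Abca4, against 22.5% of all genes.

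**Figure D1:**
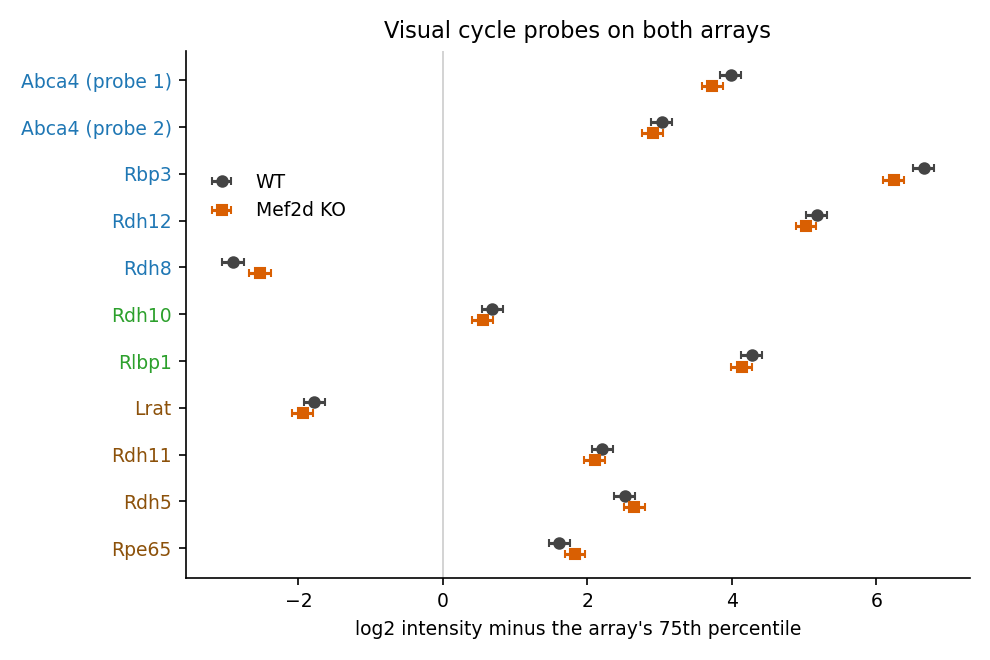
Level of each visual cycle probe, as log2 intensity minus the array's 75th percentile, on the WT array (circles) and the Mef2d KO array (squares); bars are 1 SD of the scanner error model and gene names are blue for photoreceptor, green for glial and brown for pigment epithelium genes. The points of a probe lie close together, and those of Rbp3 and Rdh8 are the only ones whose bars do not overlap.

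Among the photoreceptor genes, Rbp3 stood furthest below 0. Its single probe read 81328 intensity units on the WT array and 64863 on the Mef2d KO array, or levels of 6.65 and 6.24. The difference of -0.41 ± 0.20 is a 1.33-fold lower value, with a 95% interval from the error model of -0.81 to -0.014. Under the 75th percentile scaling it was the 1 member of 10 whose interval left out 0. Median scaling moves every probe by 0.18 and leaves its error as it is. It put Rbp3 at -0.24 ± 0.20, where the interval holds 0, and Rdh8 at 0.56 ± 0.21, where it does not. Intervals were not worked out under the remaining settings. Under the 75th percentile scaling, 9.15% of all genes read on both arrays had a lower difference than Rbp3. Its value thus lies in the flank of the distribution and not at its end. Every scaling and background setting tried put Rbp3 below 0, from -0.43 to -0.24.

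Rdh8, the retinol dehydrogenase of the outer segment, stood at the other end. Its probe read 108 units in WT and 149 in Mef2d KO, which is 3.98 and 6.20 times the local background. The difference was 0.38 ± 0.21, or 1.30-fold higher, with an interval from -0.036 to 0.80, and 4.95% of all genes had a higher one. The size of this difference depended on how background and trend with level were treated. It came to 0.16 after normexp background correction, and to 0.50, 0.52 and 0.56 under quantile normalization, cyclic loess and median scaling.

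**Figure D2:**
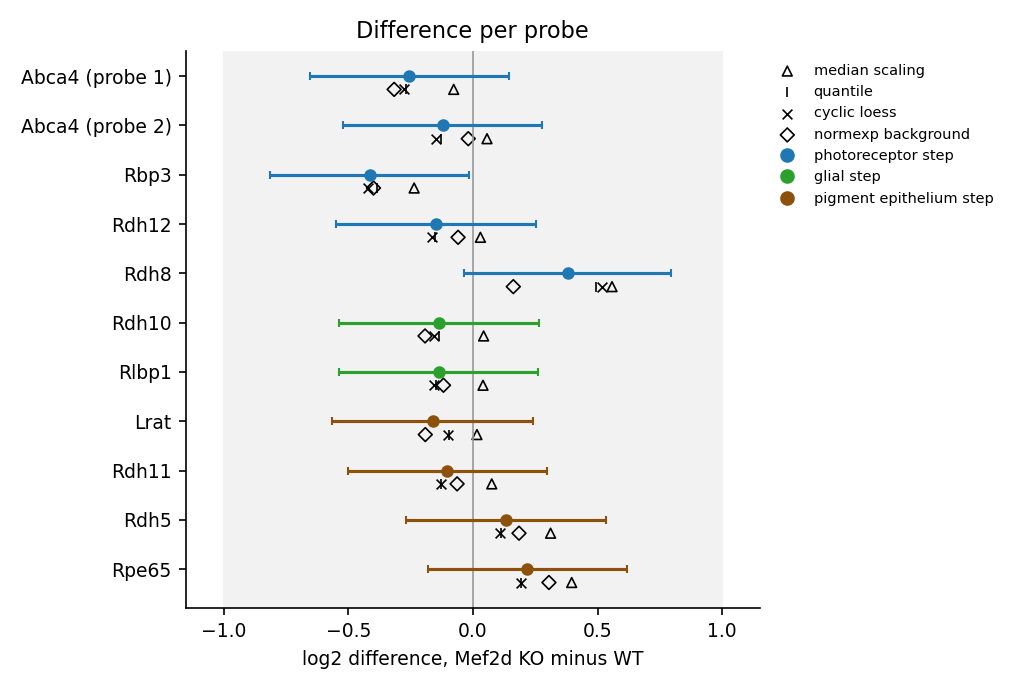
Log2 difference, Mef2d KO minus WT, of each probe (filled circles, coloured by the step of the cycle) with 1.96 times the scanner error model as bars, and the same difference under 4 other settings (black symbols below each point); the grey band spans differences within 2-fold. All points lie inside the band, the bar of Rbp3 alone leaves out 0, and median scaling (triangles) moves every probe to the right by 0.18.

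Abca4, the retinoid transporter of the disc rim, was read by a pair of probes. The brighter one read 12790 units in WT and 11387 in Mef2d KO, a difference of -0.26 ± 0.20. The dimmer one read 6577 and 6423 units, a difference of -0.12 ± 0.20. Both were below 0, and they differed from each other by less than the error of either. Median scaling brought the brighter probe to -0.077 and turned the dimmer one to 0.057.

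Rdh12, which reduces retinal in the inner segment, read 29134 units in WT and 27938 in Mef2d KO. The difference was -0.15 ± 0.20 and turned to 0.030 with median scaling. It lay within the error, and 25.9% of all genes had a lower difference. The median of the 4 photoreceptor genes was -0.20, and -0.023 with median scaling. For comparison, 15 rod markers had a median of -0.12 with 11 below 0, and none was 2-fold apart. Sag (rod arrestin) stood at -0.82, Gngt1 (a transducin subunit of rods) at -0.62 and Gnat1 (rod transducin) at -0.43. The 4 rod markers above 0 included Pde6b at 0.38, Nr2e3 at 0.37 and Cngb1 at 0.33. The rod marker median turned to 0.056 with median scaling. Of 12 cone markers 2 were at least 2-fold lower, Arr3 (cone arrestin) at -5.36 and Pde6h (a subunit of the cone phosphodiesterase) at -2.42. Opn1sw at -0.53 and Opn1mw at -0.31 came after them. The cone marker median was -0.18 with 9 below 0, and -0.0032 with median scaling. Above 0 stood Cnga3 at 0.29, Gngt2 at 0.039 and Gnb3 at 0.031. The 4 photoreceptor genes of the visual cycle had no value of the size of Arr3 or Pde6h. In bulk tissue, fewer cells of a type and less RNA per cell cannot be told apart.

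Sequence before the transcription start was taken for the members from RefSeq (GRCm38.p6), which held it for 9 of the 10, all but Rdh10. Photoreceptor genes are known targets of CRX, the homeodomain factor that binds the core TAATCC, and MEF2 factors bind their own A/T-rich consensus. The 250 bases before each start were searched on both strands for TAATCC and for the MEF2 consensus. They are shown first for Rbp3 and Rdh8, the members furthest apart in difference, 5′ to 3′ on the gene's strand (+), with the CRX core in capitals, at chr14:33953753-33954002 for Rbp3 and at chr9:20818244-20818493 for Rdh8.
Rbp3: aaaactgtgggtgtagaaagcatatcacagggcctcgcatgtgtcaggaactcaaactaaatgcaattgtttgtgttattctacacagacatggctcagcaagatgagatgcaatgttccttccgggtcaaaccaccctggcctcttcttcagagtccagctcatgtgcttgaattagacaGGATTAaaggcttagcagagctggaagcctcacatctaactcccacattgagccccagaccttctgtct
Rdh8: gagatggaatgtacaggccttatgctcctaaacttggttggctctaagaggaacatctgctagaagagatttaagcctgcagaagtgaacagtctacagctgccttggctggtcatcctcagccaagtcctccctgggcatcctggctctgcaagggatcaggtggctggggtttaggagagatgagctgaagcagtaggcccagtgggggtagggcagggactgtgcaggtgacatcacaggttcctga
The core is present once in the Rbp3 stretch, on the opposite strand and starting 69 bases before the start, and these letters are not in the Rdh8 stretch. It was found in 2 further members, Abca4 (58 bases before the start) and Rpe65 (42 bases before). The 3 sites are set side by side in 30 bases each, on the + strand, at chr14:33953922-33953951, chr3:122044390-122044419 and chr3:159599127-159599156, with the core in capitals.
Rbp3: ttgaattagacaGGATTAaaggcttagcag
Abca4: gtaattagagggGGATTAtgcttgaagggg
Rpe65: ctcctccaataaGGATTAgattgcatacaa
The same 6 letters thus stood before the start of a gene at -0.41, a gene at -0.26 and a gene at 0.22. Of 32851 windows of the same length in RefSeq, 6.25% held the core. The MEF2 consensus was in none of the members' windows and in 2.92% of all windows. A match of letters does not show binding, and its absence from this window says nothing of the factor elsewhere.

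The glial members were nearly alike. Rlbp1, whose product CRALBP holds 11-cis-retinoids, read 15622 units in WT and 15089 in Mef2d KO, a difference of -0.14 ± 0.20. Rdh10, a retinol dehydrogenase that also serves retinoic acid synthesis in development, read 1299 and 1257 units, a difference of -0.14 ± 0.20 as well. Median scaling turned these to 0.041 and 0.043. The 15 Mueller glia markers had a median of -0.17, close to both genes, with 12 below 0 and none 2-fold apart. Car2 (a carbonic anhydrase) stood at -0.44, Hes1 (a Notch target) at -0.28, Clu (clusterin) at -0.26 and Kcnj10 (a potassium channel) at -0.21, while the marker median was 0.0069 with median scaling.

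The pigment epithelium genes divided by sign. Rpe65, the retinoid isomerase, read 2467 units in WT and 3049 in Mef2d KO, a difference of 0.22 ± 0.20, and 12.3% of all genes had a higher one. Rdh5, which oxidises 11-cis-retinol, read 4624 and 5390 units, a difference of 0.13 ± 0.20. These 2 and Rdh8 were the members above 0, and they stayed above 0 in every setting, at 0.19 to 0.40 for Rpe65 and 0.11 to 0.31 for Rdh5.

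Lrat, which esterifies retinol, read 235 units in WT and 223 in Mef2d KO, at 5.88 and 6.21 times the local background. Its difference was -0.16 ± 0.21. Rdh11, a broadly expressed retinal reductase, read 3718 and 3680 units, a difference of -0.10 ± 0.20. Both lay within the error and turned positive with median scaling, to 0.016 and 0.076. Rdh11 and Rdh12 are adjacent protein-coding genes in the RefSeq order, and their differences of -0.10 and -0.15 both lay within the error. Rlbp1, on another chromosome, stood at -0.14, also within the error. Whether the neighbours share a change was not tested.

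Pigment epithelium is not part of the neural retina, and its transcripts were read on both arrays. Of 16 pigment epithelium and choroid markers 15 were read on both arrays, 10 of them above 0, with a median of 0.12. None was 2-fold apart. Tyrp1 (melanin synthesis) stood at 0.41, Slc16a8 (a lactate transporter of this epithelium) at 0.39, Stra6 (the retinol-binding protein receptor) at 0.33 and Rgr (an opsin of this epithelium and of Mueller glia) at 0.28. Their levels ranged from -4.85 to 3.96 in WT and from -5.06 to 4.08 in Mef2d KO, and the log2 ratio of their summed intensities, scaled as above, was 0.045. Best1, a channel of this epithelium, was not well above background on either array. Of the markers read on both arrays 5 were below 0, the furthest at -0.28. Rpe65 at 0.22 and Rdh5 at 0.13 had the sign of the marker median, and Lrat at -0.16 and Rdh11 at -0.10 did not. All of these 4 but Rpe65 lay within the error, and with median scaling all 4 were above 0. The part of the markers in these differences was not tested.

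**Figure D3:**
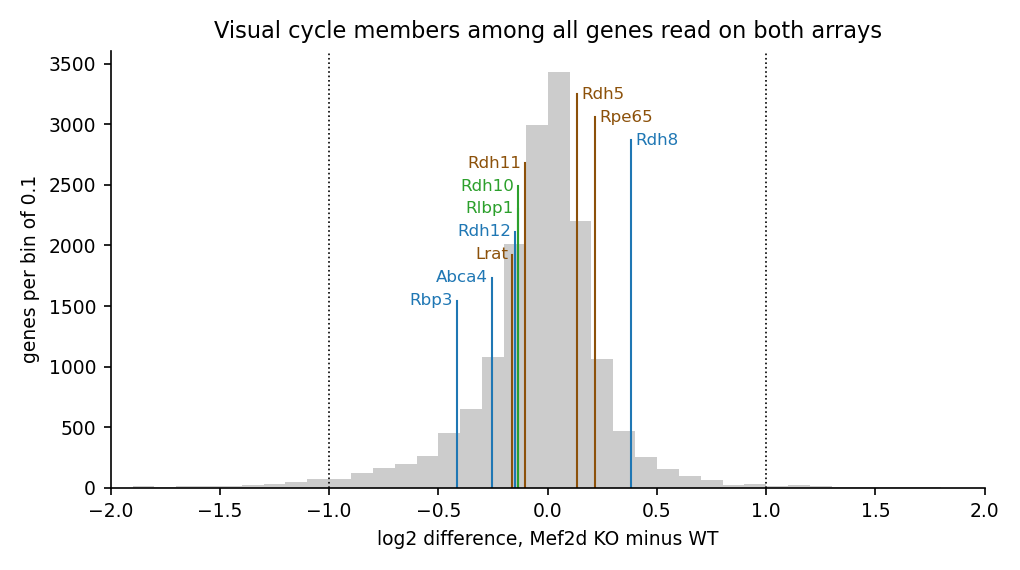
Number of genes per 0.1 of log2 difference, Mef2d KO minus WT, over the genes read on both arrays (grey bars; 59 genes beyond 2 on either side are not drawn), with the visual cycle members as lines coloured blue for photoreceptor, green for glial and brown for pigment epithelium genes; line height has no meaning and dotted lines mark 2-fold. The members lie between -0.41 and 0.38, inside both dotted lines.

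Other genes of retinoid handling were examined in 5 lists holding 57 genes, of which 45 were read on both arrays. Lrp2 and Opn3 stood 2-fold or more lower and Rdh1 higher, 21 of the 45 lay below 0, and the median was 0.0089. Among the other retinol dehydrogenases and reductases, 11 of 18 were read on both arrays and 1 was 2-fold apart. Rdh1, an all-trans-retinol dehydrogenase, read 70.6 units in WT and 177 in Mef2d KO, a difference of 1.24 ± 0.22, which was 0.85 with normexp background and then within 2-fold. Dhrs7c stood at -0.49, Rdh9 at 0.49 and Adh5 at 0.15, while Dhrs3, a retinal reductase of cones, stood at 0.051. Dhrs9, Rdh7, Hsd17b6, Adh1, Adh4 and Adh7 were not well above background on either array. Rdh16 was read on the WT array only, at least 1.90-fold higher there, and differed by -0.34 with normexp background. Rdh1, Rdh9, Rdh16 and Rdh19 are close paralogs, and whether their probes tell them apart was not tested.

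In the list of retinoid binding, uptake and transport, 10 of 11 genes were read on both arrays. Lrp2 (megalin), an endocytic receptor that takes up retinol-binding protein in other epithelia, read 1193 units in WT and 472 in Mef2d KO. Its difference of -1.42 ± 0.20 was the 1 of that list past 2-fold and stayed past it with each setting tried, at -1.44 to -1.23. Rbp4 (serum retinol-binding protein) stood at 0.65, Stra6 at 0.33 and Crabp2 (a retinoic acid carrier) at -0.17. The list median was -0.030, and 0.15 with median scaling.

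The opsins, which bind the chromophore that the cycle renews, had a median of -0.31 over the 7 of 8 read on both arrays. Opn3 (encephalopsin) read 109 units in WT and 56.5 in Mef2d KO, a difference of -1.03 ± 0.23 that was within 2-fold under median scaling, quantile normalization, cyclic loess and normexp background, at -0.85 to -0.61. Opn1sw, the short-wavelength cone opsin, stood at -0.53 and Opn1mw at -0.31, both below 0 with median scaling too. Rgr (0.28) and Rrh (0.086), which are opsins of the pigment epithelium, were the 2 above 0. Opn5 was read on the WT array only, at 19.5 units, with a bound of 1.41-fold higher there (-0.50 as a log2 difference). The error of its difference, 0.56, is larger than this bound, and normexp background gave -0.27.

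Enzymes that esterify, isomerise or saturate retinoids by other routes had differences from -0.23 to 0.036 over the 5 of 7 genes read on both arrays. Bco2 (a carotenoid oxygenase) stood at -0.23, Retsat (retinol saturase) at -0.17, Awat2 (a wax ester synthase) at 0.036 and Degs1 (a desaturase proposed as a second isomerase) at 0.017. Bco2 and Awat2 were dim, at 65.9 and 41.4 units in WT, and cyclic loess put them at 0.045 and 0.40. Of 13 genes of retinoic acid synthesis, breakdown and response, 12 were read on both arrays and none was 2-fold apart. Aldh1a3 stood at 0.47, Aldh1a2 at 0.23, both enzymes of retinoic acid synthesis, Aldh8a1 at -0.29 and the receptor gene Rxrg at -0.21. A second Rxrg probe had the opposite sign, 0.48, and Aldh1a2 turned to -0.068 with normexp background.

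**Figure D4:**
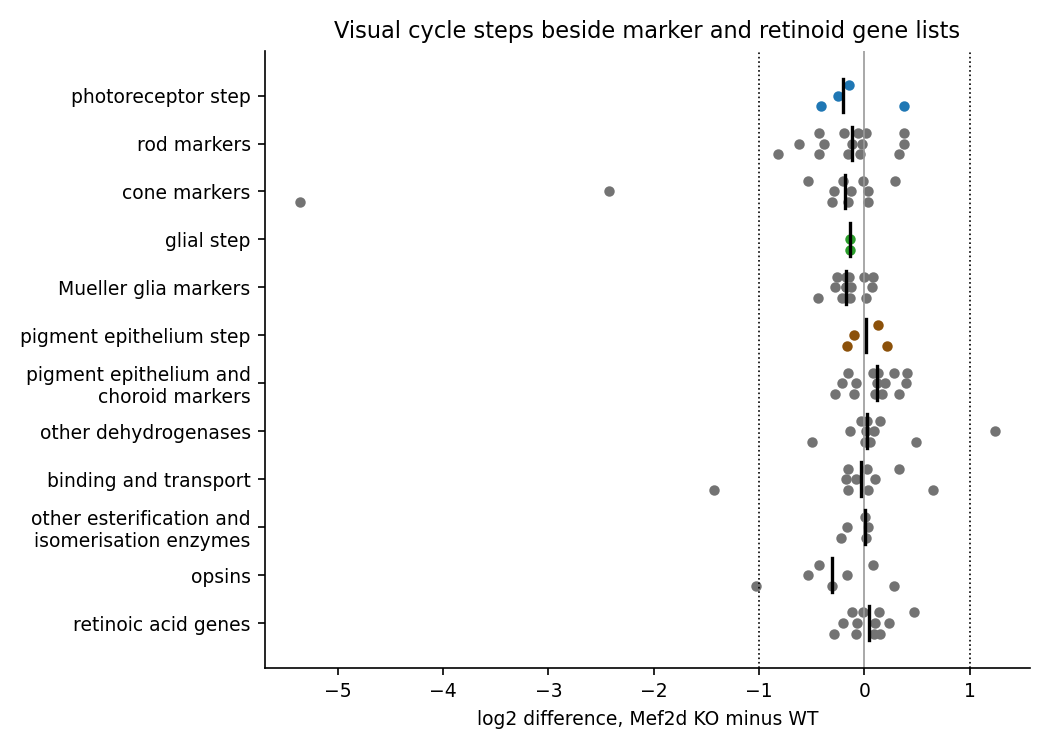
Log2 difference, Mef2d KO minus WT, of each gene read on both arrays, for the 3 steps of the visual cycle (coloured), 4 lists of cell type markers and 5 lists of other retinoid genes (grey); black bars are medians and dotted lines mark 2-fold. The coloured points lie within 2-fold, and of the grey points Arr3 and Pde6h among the cone markers, Rdh1, Lrp2 and Opn3 lie outside it.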

How the data were processed

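RNA was amplified, labelled with Cy3 and hybridised, as the labels describe. The authors' intensity values are the processed signals of Agilent Feature Extraction, version 10.10.1.1, with background subtracted and spatial trend removed, per the file headers. The deposited series table holds these intensities multiplied by 1.88 (WT) and 1.76 (Mef2d KO). The table is linear, uncentred and has column medians of 155.1 and 136.6; the origin of its constants was not given in the sources used here. Both arrays share a slide and a scan.

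Levels were log2 of the processed signal minus the 75th percentile over 59305 probe spots (807.5 and 857.9 units). Outlier spots (106 and 126) were dropped on either array's flag, and spots of 1 probe were averaged (55669 probes). Probes were named by RefSeq accession through the GRCm38.p6 annotation (48.9% of probes). The array design names build mm9, so no array position was used. A gene was represented by its brightest probe and counted where all its spots were well above background on both arrays. A gene read on 1 array only was given a bound against the lowest signal well above background on the other. The error model's SD times 1.96 gives the 95% intervals. The difference had a median SD of 0.069 over the spots of 348 replicated probes. The number of arrays limits the precision. The counting was tested on simulated data drawn from the WT array, with changes past 2-fold placed in brighter probes only. That test did not try changes in dim probes, such as those of Rdh8 and Lrat, or changes within 2-fold.

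The text names all members, and of each other list the genes past 2-fold and up to 4 with the largest differences. Dhrs3, Rrh, Pde6b, Nr2e3, Cngb1, Cnga3, Gngt2, Gnb3 and genes not read on both arrays were added after their values were seen. Of the lens markers only Mip and Lgsn are named. With 1 difference per gene, no genes were ranked by likeness. The members and lists were chosen with earlier results of these data known. Opn1sw, Opn1mw, Rgr, Rrh, Ttr, Stra6 and Rxrg are among the genes that stand in 2 lists. Some listed genes are not reported here by name. The tools were limma 3.58.1 (R 4.3.3), and pandas 2.3.3, numpy 2.4.6 and matplotlib 3.10.9 (Python 3.11.15).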

Additional observations from a re-analysis of the deposited data

How the results depend on the processing

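No visual cycle gene passed 2-fold under any of the 8 alternatives: normexp background (offset 50), cyclic loess, quantile normalization, median scaling, the 75th percentile of probes well above background, averaging a gene's probes, the deposited table, and no filter on dim probes. Median scaling changed the number of members below 0 from 7 to 2 and their median to 0.042, and the median of the other retinoid genes to 0.19. Of those genes, 1 was 2-fold apart with normexp background and 8 with no filter on dim probes. Over all genes, the counts at least 2-fold lower and higher were 280 and 100 as reported, 170 and 151 with median scaling, 164 and 156 with quantile normalization, 162 and 154 with cyclic loess, 103 and 61 (164 in all) with normexp background, and 1738 and 225 (1963 in all) with no filter. The counts with no filter run over 20659 named genes and 57 other retinoid genes, against 16172 and 45 read on both arrays. The causes were not tested, except that no filter admits probes near background. Dim signal limits Rdh8 and Lrat most. No paired analysis was possible because each group has 1 array.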
